A study of Mus musculus with 2 samples.

Results

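The genes described here run the cell division cycle: 50 genes of DNA replication and of mitosis, chosen by name, of which 48 had a value among the 19937 genes measured. A gene was measured by the probe sets of an Affymetrix array whose annotation gives that symbol alone, and the brightest by the mean of both arrays was taken where there were several. By the known role of each gene, 21 measured members were assigned to the passage from G1 into S phase (G1/S), 21 to G2 and mitosis (G2/M) and 6 to the cyclins, kinases and inhibitors that act earlier in G1. No value is given for Cdkn1a, whose probe set carries a second gene symbol, or for Ccnb1, for which no probe set with that symbol was used here.

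RNA came from 2 samples of TR1 cells, CD4 T cells that make IL-10 without depending on FOXP3, taken from the small intestine of mice. The impaired sample came from mice with the CD4-DNIL-10R transgene, in which Cd4 sequences drive a dominant-negative IL-10 receptor in T cells, and the wildtype sample from mice labelled wildtype for IL10RA. Both groups of mice had received 15 μg of the anti-CD3 antibody 2C11, 2 times, into the peritoneum, and were killed 4 or 48 hours after the last dose; the labels do not tell which time applies to which sample, how many mice were pooled, or how cells were sorted. Each genotype was measured on 1 array, which limits the precision of all values: there is no replicate spread, and no difference was tested. Values are log2 RMA expression, in which a difference of 1 is 2-fold, and every difference is impaired minus wildtype. Brightness depends on the probes, so levels are compared between samples and not between genes.

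Cells that leave G1 first license replication origins, when CDC6 and CDT1 load the MCM helicase, and then fire them, while E2F factors switch on the genes for licensing, nucleotide supply and cyclin E. Later in the cycle MYBL2 and FOXM1 switch on the cyclins, kinases and spindle proteins that take cells through mitosis. T cells stimulated through CD3 enter this cycle from rest.

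The defining genes of the labelled cell type were bright on both arrays. Cd4 was at 13.18 in the impaired sample and 13.14 in the wildtype sample, Cd3e at 13.57 impaired and 13.58 wildtype, Il10 at 12.92 impaired and 12.94 wildtype and Lag3 at 11.36 impaired and 11.41 wildtype. TR1 markers had a median of -0.05 over 7 genes and T cell markers of -0.01 over 7. Il10ra, chosen after its values were seen, was at 12.30 in the impaired sample and 9.92 in the wildtype sample, and whether its probe set reads the transgene was not tested. Both CD8 T cell markers had signal on both arrays and differences below 0. Cd8a was at 11.42 in the impaired sample and 12.12 in the wildtype sample (-0.70). Cd8b1 was at 9.72 impaired and 9.80 wildtype (-0.09). Genes of other intestinal cells were brighter in the impaired sample and are given below beside the members, and the 7 markers of pancreatic acinar cells went the other way (median -1.94, summed linear signal 2325 in the impaired sample and 9097 in the wildtype sample).

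The 2 classes differed in the letters of their promoters. RefSeq promoter windows of build GRCm38.p6, each running from 250 bases before to 50 bases after a gene's start, were matched by symbol for 43 of the 50 members, a gene with more than 1 window counting once. The E2F letters searched were TTTGGCGC, TTTCCCGC, TTTCGCGC and TTTGCCGC. The cell cycle genes homology region (CHR), the element bound by the MuvB complexes of late cell cycle genes, was searched as TTTGAA, or in its variant form TTCGAA, which is its own reverse complement. The NF-Y element was searched as CCAAT. Both strands were read, and matches may overlap. An E2F match was present in 8 of 19 G1/S members (42.1%), in 1 of 18 G2/M members (5.56%), in 0 of 6 G1 regulators and in 575 of 17492 protein-coding genes (3.29%). A CHR match was present in 5 of 19 G1/S members (26.3%), in 13 of 18 G2/M members (72.2%), in 0 of 6 G1 regulators and in 20.2% of protein-coding genes. CCAAT was present in 13 of 19 G1/S members (68.4%), in 15 of 18 G2/M members (83.3%) and in 42.3% of protein-coding genes. All 13 G2/M members with CHR letters also held CCAAT, and so did all 5 G1/S members with CHR letters. The pair was found together in 9.24% of protein-coding genes. Over all 32851 windows, E2F letters were in 2.26%, CHR letters in 19.2% and CCAAT in 37.4%. A match describes letters and not binding.

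**Figure D1:**
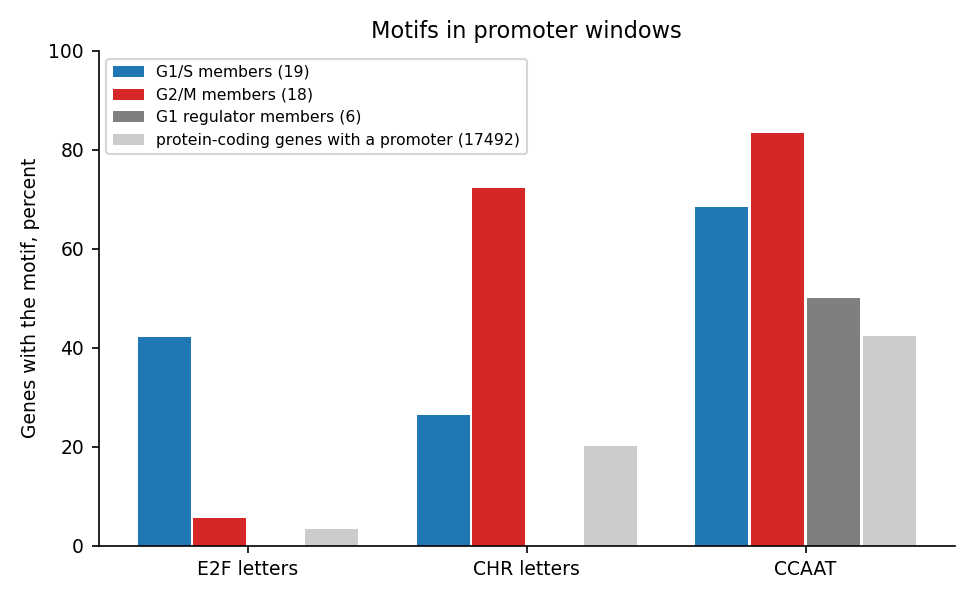
Share of genes, in percent (vertical axis from 0), whose promoter window holds E2F letters, CHR letters or CCAAT on either strand, for 19 G1/S members, 18 G2/M members, 6 G1 regulators and 17492 protein-coding genes. The E2F bar is highest for G1/S members (42.1%) and the CHR bar for G2/M members (72.2%).

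The windows of 5 members are printed with every match in capitals: those of the members with the highest and lowest difference in each of the G1/S and G2/M classes, and that of Cdk1, the G2/M member with both E2F and CHR letters. Cdt1 lies at chr8:122567765-122568064 (plus strand), Cdc6 at chr11:98907901-98908200 (plus strand), Cdca8 at chr4:124936868-124937167 (minus strand), Cenpf at chr1:189688037-189688336 (minus strand) and Cdk1 at chr10:69352863-69353162 (minus strand). Each is written 5′ to 3′ along its gene.
Cdt1: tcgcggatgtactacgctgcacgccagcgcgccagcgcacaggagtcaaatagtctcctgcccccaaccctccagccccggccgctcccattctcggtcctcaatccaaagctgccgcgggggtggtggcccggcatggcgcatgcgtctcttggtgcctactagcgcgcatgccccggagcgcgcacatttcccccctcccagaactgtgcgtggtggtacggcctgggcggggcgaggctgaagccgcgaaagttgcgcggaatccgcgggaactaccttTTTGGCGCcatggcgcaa
Cdc6: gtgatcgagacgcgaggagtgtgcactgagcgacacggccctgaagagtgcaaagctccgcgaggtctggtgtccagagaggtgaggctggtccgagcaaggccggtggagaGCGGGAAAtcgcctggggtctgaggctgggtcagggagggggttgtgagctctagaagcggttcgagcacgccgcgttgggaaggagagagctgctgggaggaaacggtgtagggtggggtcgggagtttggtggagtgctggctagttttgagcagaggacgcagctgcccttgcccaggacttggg
Cdca8: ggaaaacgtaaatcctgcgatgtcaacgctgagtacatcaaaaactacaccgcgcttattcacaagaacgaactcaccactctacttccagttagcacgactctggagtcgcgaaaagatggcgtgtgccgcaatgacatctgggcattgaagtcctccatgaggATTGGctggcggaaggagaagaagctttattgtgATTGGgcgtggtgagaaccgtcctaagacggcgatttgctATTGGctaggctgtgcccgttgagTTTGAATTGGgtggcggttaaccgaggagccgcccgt
Cenpf: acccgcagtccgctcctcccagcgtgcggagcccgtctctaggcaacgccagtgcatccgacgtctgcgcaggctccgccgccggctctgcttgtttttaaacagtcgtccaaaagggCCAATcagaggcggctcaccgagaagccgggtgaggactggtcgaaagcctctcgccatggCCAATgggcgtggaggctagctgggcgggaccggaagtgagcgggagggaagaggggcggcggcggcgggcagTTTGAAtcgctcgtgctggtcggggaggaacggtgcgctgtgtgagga
Cdk1: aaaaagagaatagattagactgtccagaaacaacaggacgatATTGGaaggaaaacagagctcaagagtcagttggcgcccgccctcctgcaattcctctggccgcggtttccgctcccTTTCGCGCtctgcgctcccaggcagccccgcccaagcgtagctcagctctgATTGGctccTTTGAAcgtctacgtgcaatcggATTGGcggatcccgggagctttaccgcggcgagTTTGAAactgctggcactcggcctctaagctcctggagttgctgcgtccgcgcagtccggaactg

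The E2F letters of Cdt1 begin 33 bases into the transcript, and those of Cdc6, read on the other strand, 138 bases before it. Those genes had differences at opposite ends of the G1/S class, 0.61 for Cdt1 and -0.46 for Cdc6. Among the 8 G1/S members with E2F letters 4 were above 0 and 4 below (median 0.11), and among the 11 without 6 were above 0 and 5 below (median 0.05). In the G2/M class the CHR letters of Cenpf begin 3 bases and those of Cdca8 14 bases into the transcript, and these members too stood at opposite ends, at -0.24 and 0.28. The 13 measured G2/M members with CHR letters had 6 above 0 and 7 below (median -0.02), against 3 above and 1 below for the 4 measured members without them (median 0.04). Members with the same promoter letters thus lay on both sides of 0 in either class.

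The 2 samples were close in the level of nearly every member. Of the 48 members, 0 differed by 2-fold, against 1.02% of all genes. All 48 lay at or above 6.91, the median probe set by its mean of both arrays, so the 10754 genes that also do so are set beside them below. Of those genes 1.57% differed by 2-fold. Shares this small allow 0 of 48 genes, so the 2-fold count does not set the members apart. At 1.5-fold there was 1 member, Cdt1, against 5.38% of all genes and 6.81% of those past the median. Of the members 42 differed by less than 0.25, as did 67.1% of the genes past the median. The median absolute difference was 0.09 over the members and 0.17 over those genes. Above 0 were 25 members and below it 23, and the share of all genes above 0 was 51.5%. The members' median was 0.03, against 0.01 over all genes. Under 5 other ways of scaling the arrays or choosing probe sets 42 of the 48 members kept their sign. Not all of these ways could change it. Only 4 members have more than 1 probe set, and adding the same offset to both arrays cannot change a sign.

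**Figure D2:**
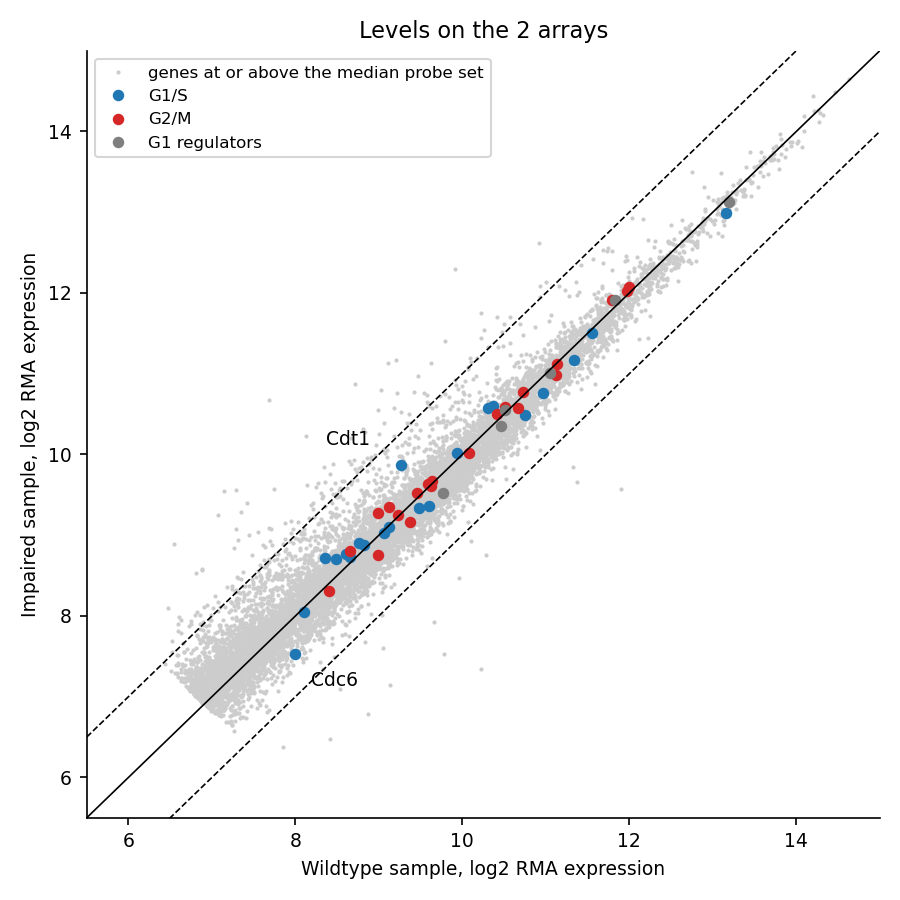
Log2 RMA expression in the impaired sample (vertical axis) and the wildtype sample (horizontal axis) for 48 members (large points, coloured by class) and the 10754 genes at or above the median probe set (small grey points). The solid line marks equal levels and the dashed lines 2-fold, and all 48 members lie between the dashed lines.

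The factors that license origins differed from one another more than any other role group. Cdt1, which brings the MCM helicase to origins and is destroyed once S phase begins, was at 9.87 in the impaired sample and 9.26 in the wildtype sample (0.61, 1.53-fold brighter). Of the genes past the median, 94.9% had a lower difference than Cdt1. Cdc6, its partner in loading the helicase, was at 7.53 in the impaired sample and 7.99 in the wildtype sample (-0.46, 1.38-fold dimmer). Only 3.14% of the genes past the median had a lower difference than Cdc6. So the highest and the lowest of all 48 members act in the same loading step and pointed opposite ways. Cdc6 was also the dimmest of the 48 members in both samples. Gmnn encodes geminin, the inhibitor of CDT1. Chosen after its values were seen, it was at 5.99 impaired and 6.19 wildtype, below the median probe set in both samples.

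The ring of the replicative helicase, MCM2 to MCM7, was split evenly. Mcm5 was at 10.58 in the impaired sample and 10.31 in the wildtype sample (0.27), and Mcm7 at 10.60 impaired and 10.37 wildtype (0.23). Mcm2 was at 10.02 impaired and 9.93 wildtype (0.09). Mcm4 went the other way, at 10.49 in the impaired sample and 10.76 in the wildtype sample (-0.26), as did Mcm6 at 10.77 impaired and 10.97 wildtype (-0.20). Mcm3 was at 9.10 impaired and 9.12 wildtype (-0.02). The median of the 6 subunits was 0.03, and 3 were above 0 and 3 below. With intensity-dependent centring Mcm3 moved above 0, to 0.03, and the others kept their sign. Mcm10, which helps to activate the helicase, differed by 0.08 (8.74 impaired against 8.66 wildtype), and Cdc45, which joins the helicase when origins fire, by 0.05 (8.88 impaired against 8.83 wildtype).

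The clamp and nucleotide genes lay mostly a little below 0. Pcna, the sliding clamp of the replicative polymerases, was at 12.99 in the impaired sample and 13.15 in the wildtype sample (-0.16), and its second probe set gave -0.09. The subunits of ribonucleotide reductase, which makes deoxyribonucleotides, were at 11.18 in the impaired sample and 11.34 in the wildtype sample for Rrm2 (-0.16) and at 11.50 impaired and 11.56 wildtype for Rrm1 (-0.06). Tyms, which makes thymidylate, was at 9.36 impaired and 9.60 wildtype (-0.24). Tk1, the thymidine kinase that salvages thymidine, was the exception, at 8.91 in the impaired sample and 8.76 in the wildtype sample (0.15, and 0.27 by its second probe set). Uhrf1, which guides DNA methylation at replicated sites, was at 9.03 impaired and 9.06 wildtype (-0.03). Of these 6 genes 5 were below 0, with a median of -0.11, and Uhrf1 moved to 0.01 with intensity-dependent centring.

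The 3 E2F factors among the members were above 0 and both cyclin E genes below. E2f2, an activating E2F, was at 8.72 in the impaired sample and 8.35 in the wildtype sample (0.37, 1.29-fold). E2f8, an E2F that represses its targets later in S phase, was at 8.70 impaired and 8.49 wildtype (0.21), and E2f1, an activator, at 8.76 impaired and 8.61 wildtype (0.15). Ccne1, a cyclin that activates CDK2 at the start of S phase, was at 9.34 in the impaired sample and 9.49 in the wildtype sample (-0.14), and Ccne2 at 8.04 impaired and 8.10 wildtype (-0.06). These 5 signs were the same with intensity-dependent centring and with median centring. Each of the 5 genes has 1 probe set, so the choice of probe set could not change them. Adding the same offset to both arrays cannot change a sign either. The 3 E2F genes lay in the direction opposite to Rrm1, Rrm2 and Tyms and in the same direction as Tk1. The windows of these nucleotide genes held no E2F letters, and whether E2F factors set any of these levels was not tested. The 8 G1/S members with E2F letters, E2f2 among them, were split, with 4 above 0 and 4 below.

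**Figure D3:**
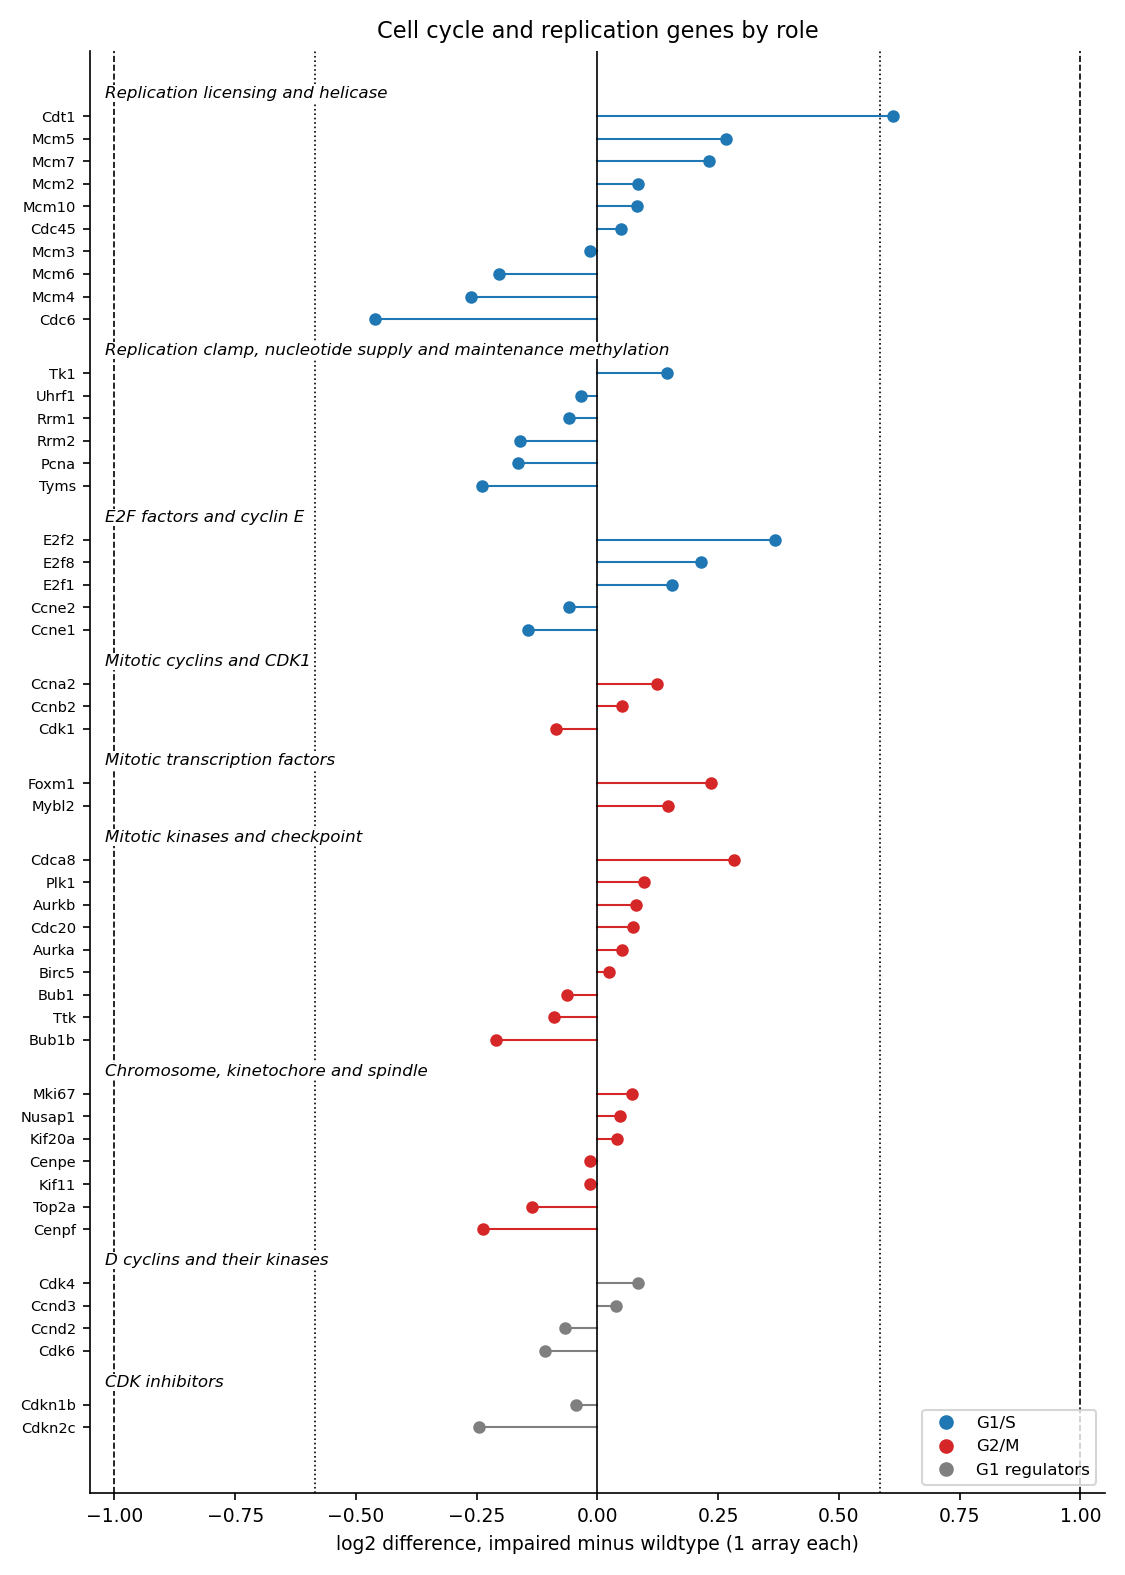
Log2 difference, impaired minus wildtype, of 48 members (horizontal axis), ordered within each role and coloured by class. Dotted lines mark 1.5-fold and dashed lines 2-fold. Cdt1 (0.61) lies past the dotted line and Cdc6 (-0.46) is the lowest point.

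Genes of mitosis were closer to 0 than those of replication. Mki67, whose protein coats mitotic chromosomes and is the usual marker of dividing cells, was at 12.07 in the impaired sample and 11.999 in the wildtype sample (0.07). Ccna2, the cyclin of S phase and G2, was at 11.91 impaired and 11.79 wildtype (0.12). Ccnb2, a cyclin of mitosis, was at 12.02 impaired and 11.97 wildtype (0.05). Cdk1, the kinase these cyclins activate, was at 10.58 impaired and 10.66 wildtype (-0.09). The factors that drive this class were both above 0: Foxm1 was at 9.35 in the impaired sample and 9.12 in the wildtype sample (0.23), and Mybl2 at 8.80 impaired and 8.65 wildtype (0.15).

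The chromosomal passenger complex, which corrects the attachment of chromosomes to the spindle, gave the highest member of the class. Cdca8, which encodes its borealin subunit, was at 9.27 in the impaired sample and 8.99 in the wildtype sample (0.28, 1.22-fold). The other subunits were nearer 0: Aurkb, its kinase, was at 10.59 impaired and 10.51 wildtype (0.08), and Birc5, which encodes survivin, at 9.25 impaired and 9.22 wildtype (0.02). Plk1, a kinase of mitotic entry, differed by 0.10, Aurka, a kinase of the spindle poles, by 0.05, and Cdc20, the activator of the anaphase-promoting complex, by 0.07. The checkpoint kinases that hold cells before anaphase were below 0. Bub1b was at 9.16 in the impaired sample and 9.37 in the wildtype sample (-0.21), Ttk at 8.32 impaired and 8.40 wildtype (-0.09) and Bub1 at 10.01 impaired and 10.08 wildtype (-0.06). With intensity-dependent centring Bub1 came to 0.0004, and Bub1b and Ttk stayed below 0.

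Genes of chromosomes and the spindle held the lowest member of the class. Cenpf, a kinetochore protein, was at 8.76 in the impaired sample and 8.99 in the wildtype sample (-0.24, 1.18-fold dimmer). Top2a, the topoisomerase that untangles chromosomes, was at 10.99 impaired and 11.12 wildtype (-0.14), and a second, dim probe set (5.02 impaired and 5.24 wildtype) gave -0.22. Mki67, of the same role group, is given above (0.07). The other 4 genes of chromosomes and the spindle lay within 0.05 of 0. Nusap1, which binds spindle microtubules, was at 0.05, the kinesins Kif20a at 0.04 and Kif11 at -0.02, and Cenpe, a motor of the kinetochore, at -0.02. Kif11 and Cenpe moved to 0.04 with intensity-dependent centring.

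Among the regulators of G1, the D cyclins and their kinases were nearly equal. Ccnd2 was at 13.12 in the impaired sample and 13.19 in the wildtype sample (-0.07), and Ccnd3 at 10.56 impaired and 10.52 wildtype (0.04). Their kinases differed by 0.09 for Cdk4 (11.92 impaired against 11.83 wildtype) and by -0.11 for Cdk6 (10.35 impaired against 10.46 wildtype). Cdkn2c, which encodes the CDK4 and CDK6 inhibitor p18, was at 9.52 impaired and 9.77 wildtype (-0.25, 1.19-fold dimmer). For Cdkn1b, which encodes the inhibitor p27 that holds resting T cells in G1, the 2 probe sets disagreed. The brighter was at 11.01 in the impaired sample and 11.05 in the wildtype sample (-0.04), and the dimmer at 8.15 impaired and 8.86 wildtype (-0.71, 1.64-fold dimmer). Whether the second probe set reads another form of the transcript was not tested.

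Set against each other, the G1/S and G2/M classes differed little in their middle and more in their spread. The median was -0.02 over 21 G1/S members and 0.05 over 21 G2/M members, against -0.002 over the genes past the median. Above 0 were 10 of 21 G1/S members and 13 of 21 G2/M members, and the background share was 49.4%. The G1/S median minus the G2/M median was -0.06. It became 0.01 when Mybl2, an E2F target, and Ccna2, which also acts in S phase, were counted with G1/S, so its sign rests on where 2 genes are placed. With intensity-dependent centring the G1/S median moved to 0.03 and the G2/M median to 0.10. The G1/S median minus the G2/M median was then -0.07. The interquartile range was 0.31 for the G1/S differences, 0.14 for the G2/M differences and 0.33 for the genes past the median. The standard deviation over genes was 0.24 for G1/S and 0.13 for G2/M members. G1/S differences ran between -0.46 and 0.61 and G2/M differences between -0.24 and 0.28. The 6 G1 regulators had a median of -0.06, with 2 above 0 and 4 below. Genes of a class are not replicates, and neither the medians nor the spreads were tested.

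**Figure D4:**
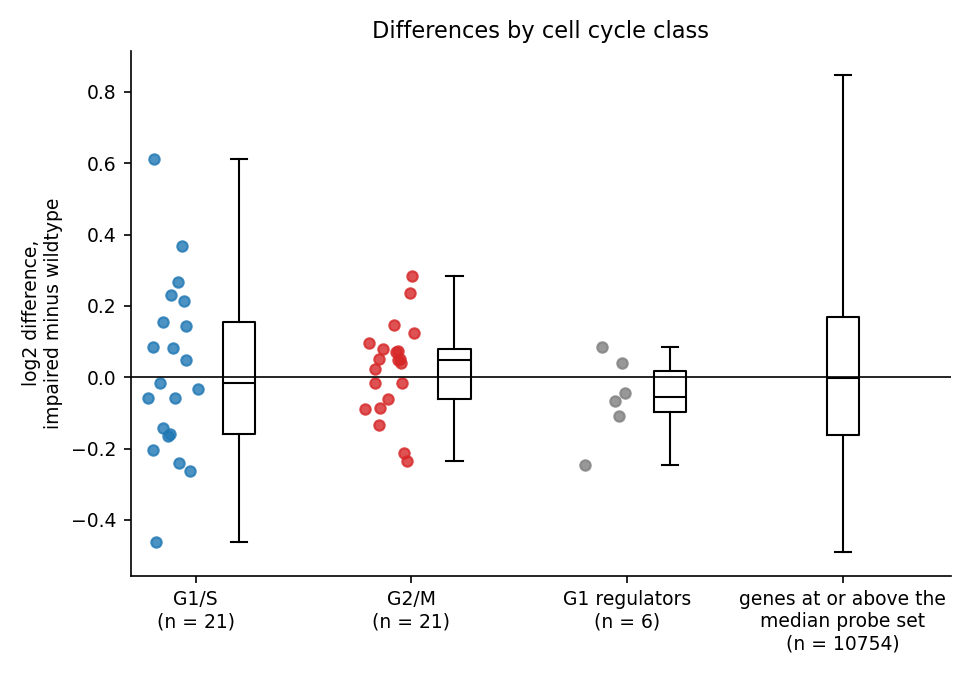
Log2 difference, impaired minus wildtype (vertical axis), of 21 G1/S members, 21 G2/M members, 6 G1 regulators and, at the right, the 10754 genes at or above the median probe set. Points are members, boxes show quartiles and median, and whiskers span all members or, for the 10754 genes, the middle 95%. The G1/S box spans 0.31 and the G2/M box 0.14.

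Further genes of the same machinery leaned below 0 more than the members did. In 13 lists of cell cycle and replication genes that are not members, 170 genes had a value. Of these 55 were above 0 and 114 below, against 50.2% of the genes past the median below 0, and their median was -0.09. With intensity-dependent centring 103 were below 0 and the median was -0.07. The list median was below 0 in 12 of the 13 lists, and in 9 after that centring. Of the 170 genes 0 differed by 2-fold and 5 by 1.5-fold, against 1.57% and 6.81% of the genes past the median.

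The subunits of the origin recognition complex, on which CDC6 and CDT1 act, were all below 0. Orc4 was at 9.01 in the impaired sample and 9.50 in the wildtype sample (-0.49), Orc2 at 8.81 impaired and 9.13 wildtype (-0.32) and Orc6 at 9.09 impaired and 9.37 wildtype (-0.28). The median of the 6 was -0.27, and 0 were above 0 with intensity-dependent centring as well. Orc1, named after its value was seen, was the only one under the median probe set and differed by -0.05. Of 16 measured kinetochore and centromere genes 15 were below 0 (14 after centring), with a median of -0.20. They were led by Cenpk (-0.51), Cenpq (-0.46) and Nuf2 (-0.36), a subunit of the NDC80 complex that holds microtubules.

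Fork genes were lower in the impaired sample more often than higher, with single genes at both ends. Tipin, which steadies the replication fork with TIMELESS, was at 8.30 in the impaired sample and 9.03 in the wildtype sample (-0.73). In its list of 14 fork and firing factors 10 were below 0 (median -0.16), Donson at -0.31 and Cdc7, the kinase that fires origins, at -0.30 among them. Of 19 genes of the polymerases, the clamp loader and flap processing 12 were below 0 and 6 above (median -0.20). Pold2, a subunit of polymerase delta, was at 9.97 in the impaired sample and 9.28 in the wildtype sample (0.70), while Rpa3, which binds single-stranded DNA, was at 8.86 impaired and 9.46 wildtype (-0.60) and Rfc3, of the clamp loader, at -0.51. Dut, which clears dUTP, was at 8.37 impaired and 9.08 wildtype (-0.71), the lowest of 10 nucleotide enzymes (7 below 0, median -0.09), followed by Gmps (-0.41) and Umps (-0.23). In the chromatin list 4 of 6 were below 0 (median -0.07), with the histone chaperone Nasp at -0.53, the chromatin remodeller Hells at -0.40 and Dnmt1, the maintenance methyltransferase, at 0.16.

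Medians of the remaining lists lay between -0.13 and 0.03. Spindle and cytokinesis genes had a median of -0.005 over 20 genes, with Kif18a at -0.34 and Cit, citron kinase, at 0.33. Condensin and cohesin genes had a median of -0.04 over 15, with the cohesin subunit Smc3 lowest at -0.35. After intensity-dependent centring these 2 medians were 0.06 and 0.02. Checkpoint and APC/C genes had a median of -0.07 over 16, with Fbxo5, an inhibitor of the anaphase-promoting complex, at -0.46 and Bub3 at -0.40. DNA damage genes had a median of -0.12 over 14, with Chek1 at -0.53, Atr, the kinase that activates it, at -0.43 and Brca1 at -0.40. The other E2F and pocket proteins were even, 7 above 0 and 7 below (median -0.02), with Rb1 at -0.24 and Rbl2 at -0.22. Among other cyclins and kinases (median -0.13 over 15, 10 below 0) Cdk7 was at -0.52 and its cyclin Ccnh at -0.44. The 5 other CDK inhibitors had a median of 0.03, with Cdkn2b at 0.43.

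Ccnd1, a D cyclin, had the highest difference of these 170 genes, at 8.71 in the impaired sample and 7.95 in the wildtype sample (0.75, 1.69-fold). The D cyclins among the members, Ccnd2 and Ccnd3, differed by -0.07 and 0.04. Dividing cells of the intestinal crypt also express the members, and crypt genes were brighter in the same sample. Of 10 crypt base and stem cell markers 9 were above 0, with a median of 0.39 and Olfm4 at 2.01, and their summed linear signal was 4519 in the impaired sample and 2273 in the wildtype sample (1.99-fold). Olfm4 carried most of that gap: without it (left out after seeing the data) the sums were 2283 in the impaired sample and 1719 in the wildtype sample (1.33-fold). The stem cell genes Lgr5 and Ascl2, also named after their values were seen, were among 3 crypt markers under the median probe set. The 12 enterocyte markers were all above 0 (median 0.90, summed signal 29964 impaired and 16925 wildtype), as were 9 goblet and Paneth cell markers (median 0.94, summed signal 33084 impaired and 16476 wildtype) and 10 neutrophil markers (median 1.68, summed signal 6130 impaired and 1903 wildtype). Above 0 were also 6 of 6 B cell markers (median 0.42, summed signal 1246 impaired and 822 wildtype), 9 of 9 macrophage markers (median 0.21, summed signal 2423 impaired and 1812 wildtype) and 6 of 7 germinal centre and plasma cell markers (median 0.15, summed signal 5457 impaired and 4814 wildtype). Lyz2 carried most of the macrophage gap. Without it (left out after seeing the data) the sums were 1885 in the impaired sample and 1656 in the wildtype sample (1.14-fold). Most of the B cell and macrophage markers were dim, with 2 of 6 and 3 of 9 at or above the median probe set. At or above it were 5 of 7 germinal centre and plasma cell markers, 7 of 10 neutrophil markers and all 12 enterocyte and 9 measured goblet and Paneth cell markers. RMA values have no 0, so no marker is listed at it. The part of these cells in any member's value was not tested, and in bulk RNA fewer cells of a type and less RNA per cell cannot be told apart.

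**Figure D5:**
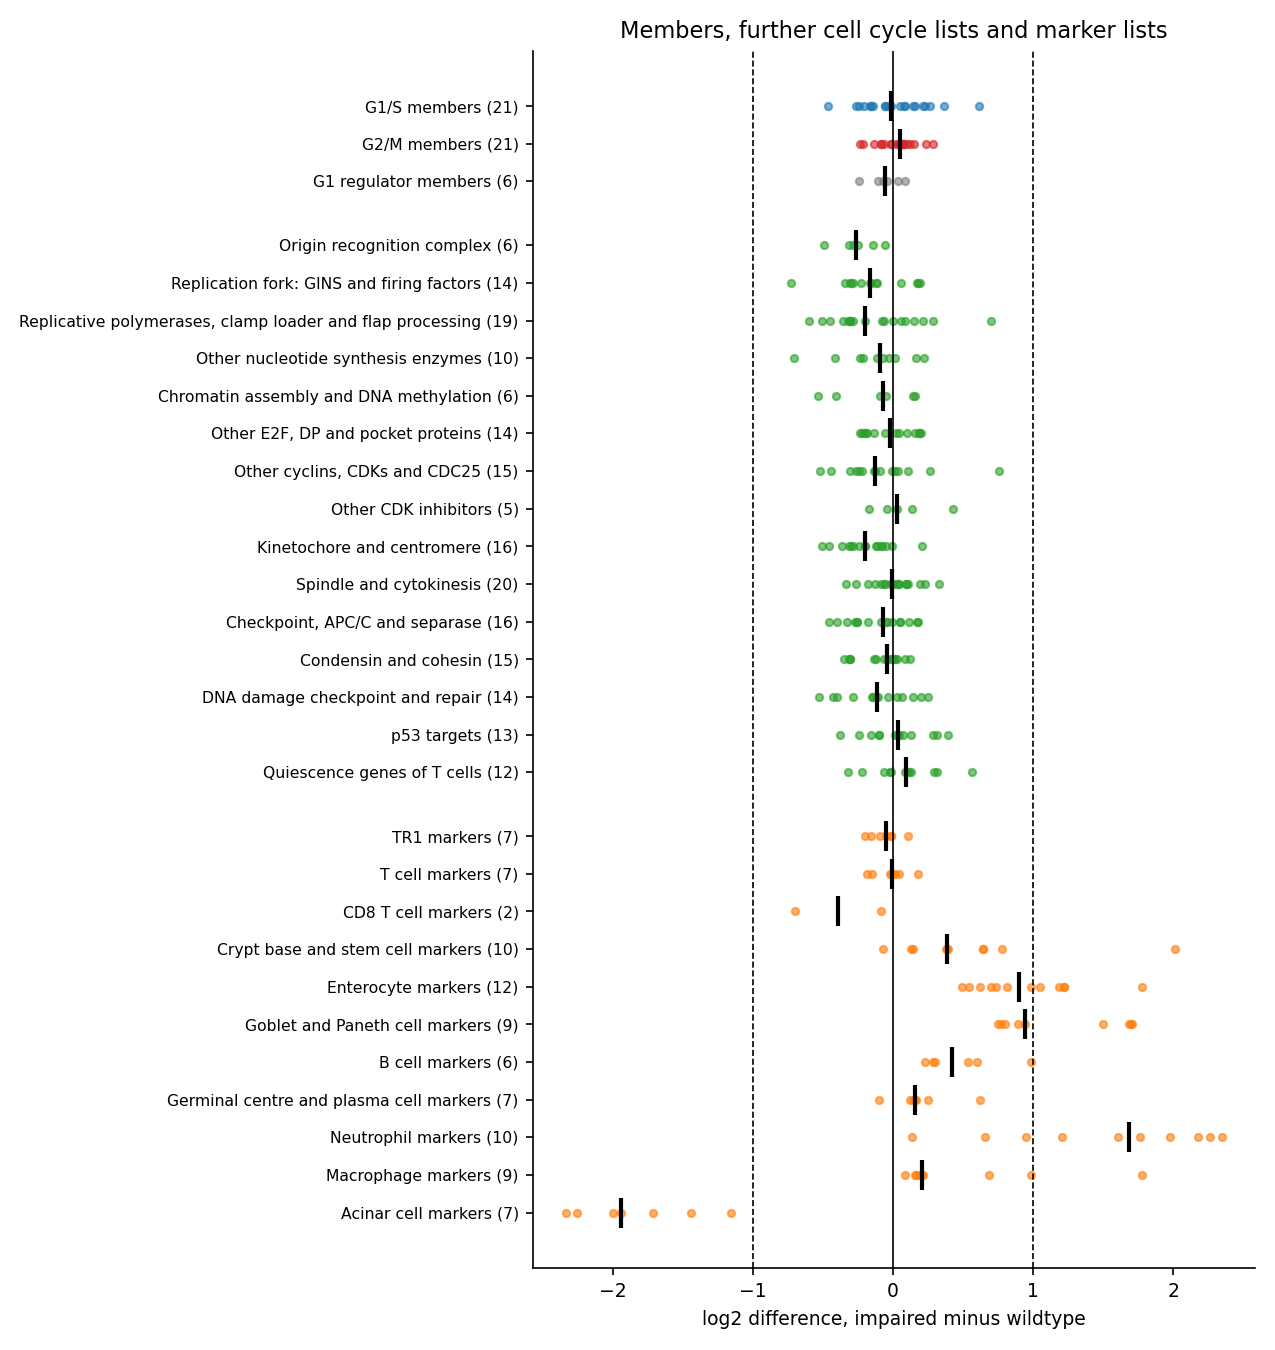
Log2 difference, impaired minus wildtype (horizontal axis), for the members by class (top), the further cell cycle, p53 target and quiescence lists (middle, green) and markers of cell types (bottom, orange). Points are genes, black bars list medians, dashed lines 2-fold and numbers in brackets the genes with a value; enterocyte, goblet and Paneth, and neutrophil markers lie right of 0, acinar markers left, and all points of the cell cycle lists lie inside 2-fold.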

How the data were processed

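The deposited table holds log2 expression of 34760 probe sets in 2 samples, made by the authors with affy and RMA per the submitters' processing notes. Their versions, the genome build and the array annotation used were not given in the sources used here. RMA compresses folds of dim probe sets. The columns had medians of 6.92 (impaired) and 6.89 (wildtype). Probe sets were named through GEO's platform annotation: 21640 had 1 symbol and were used, 1321 had several and 11799 were not listed. The brightest probe set represented a gene. No filter on low values was applied to members. With 1 array per genotype no test was possible, so genes were counted by size (2-fold and 1.5-fold).

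The members, classes and lists were chosen with earlier results of these data known. Any member could be named, and from each further list up to 3 genes with the largest absolute difference past the median probe set, with Cd4, Cd3e, Il10 and Lag3 as checks of the label. Alternatives were loess centring (fraction 0.3), median centring, an offset of 32 on the linear scale, the mean or the dimmest of a gene's probe sets, floors at the median (6.91) and the 75th percentile (8.86) of probe sets, and another class for 2 genes. Scripts were tested on simulated data. Promoter windows came from RefSeq (GRCm38.p6). Tables were handled with pandas 2.3.3 and numpy 2.4.6, loess was run in statsmodels 0.14.6 and figures were drawn with matplotlib 3.10.9, all under Python 3.11.15.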

Additional observations from a re-analysis of the deposited data

How the results depend on the processing

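Of 72 recomputed counts and medians (9 results under 8 alternatives), 70 moved by less than 0.1 on the log2 scale or by at most 1.5 times for counts, and 2 moved further. Every main median lies within 0.1 of 0, so this limit cannot show that a sign is stable. The G1/S median, -0.02, became 0.03 with loess centring and still counts among the 70. With the dimmest probe set of each gene 2 members differed by 1.5-fold, Cdkn1b joining Cdt1. A floor on members at the 75th percentile (8.86) keeps 38 of 48, and with it 4 G1/S members were above 0. It drops Mcm10, Cdc45, Tk1, E2f1, E2f2 and E2f8, all above 0, and Cdc6 and Ccne2, both below. The count fell because members were removed, and no difference changed. Under every alternative 0 members differed by 2-fold, a count that the share over all genes (1.02% in the main values) also allows. The median of all members ranged between -0.02, with that floor, and 0.08, with loess centring, and the G1/S median minus the G2/M median between -0.11, with that floor, and 0.01, with Mybl2 and Ccna2 counted as G1/S. The floor at the median drops no member, so it repeats the main values. Of 240 recomputed differences of single members 3 moved by 0.1 or more: Tk1 to 0.27 with its dimmest probe set, and Cdkn1b to -0.38 with the mean and -0.71 with the dimmest of its probe sets. Only 4 members have more than 1 probe set, so for the rest the mean and dimmest choices also repeat the main value. No scanner files were used here, so background correction and normalization could not be varied. No paired analysis was possible because each genotype has 1 array.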

Other observations

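Of 13 measured p53 targets 8 were above 0 and 5 below (median 0.04, and 0.01 with intensity-dependent centring), and 0 differed by 1.5-fold. Over all genes 51.5% were above 0 and 5.38% differed by 1.5-fold, so these counts in so few genes say little about the list. Gadd45a, a stress response gene, was at 7.84 in the impaired sample and 7.45 in the wildtype sample (0.39), Sesn2, a sestrin, at 7.55 impaired and 7.24 wildtype (0.31) and Zmat3, a zinc finger gene, at 7.57 impaired and 7.94 wildtype (-0.38). Of 12 genes known to keep T cells at rest 7 were above 0 and 5 below (median 0.10), and 0 differed by 1.5-fold. Beside the same shares over all genes, such counts do not set these 12 genes apart. With intensity-dependent centring 9 were above 0 and 3 below (median 0.15). Klf4 was at 8.95 in the impaired sample and 8.38 in the wildtype sample (0.56), and Tob1, an antiproliferative gene, at 9.36 impaired and 9.04 wildtype (0.32). Slfn2, a schlafen gene needed for T cell quiescence, went the other way, at 11.07 impaired and 11.39 wildtype (-0.32). Klf4 is also expressed by goblet cells, whose markers were brighter in the same sample (median 0.94), and its source was not tested.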
